A study of Mus musculus with 6 samples.

Results

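The genes described here encode the subunits of the NMDA receptor, a glutamate-gated channel of excitatory synapses: Grin1, Grin2a, Grin2b, Grin2c, Grin2d, Grin3a and Grin3b. They were selected by gene symbol, taking every isoform in the count table whose name without its final number is that of a Grin gene, which gave 7 of 53354 gene symbols and 39 of 133944 isoforms. The family was put forward for description, and Grin2c was listed for attention, with the genotype comparison of these same libraries already known. The values that chose the members are therefore the normalized counts of that comparison. Differences between the genotypes are given below as a description, and the p-values printed beside them come from fits over the whole table and support nothing further.

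RNA was taken from the hippocampus of C57BL/6 mice at 3 months of age, with 3 mice per genotype and 1 library per mouse. Both genotypes carried Nes-cre, a Cre recombinase under the promoter of nestin, a gene of neural precursors. The controls, N-cre, carried nothing else. The N-cre;Fox1 mice also carried a single copy of an Rbfox1 cDNA (an RNA-binding regulator of splicing) in the Gt(ROSA)26Sor locus on chromosome 6, behind a CAG promoter and a stop cassette that Cre removes. The targeted allele was made in embryonic stem cells of another mouse strain and backcrossed to C57BL/6J, and no mice with the transgene alone were compared. The libraries held 40463587 to 62141336 expected counts, that is, read counts that RSEM divides among isoforms and that need not be whole. The counts of Rbfox1 summed over its isoforms, normalized for library size as below, were 14456 to 15286 among N-cre mice. They were 13571 to 15939 among N-cre;Fox1 mice, so the genotypes overlapped in this sum for the gene carried by the transgene. The study itself reports a modest rise of hippocampal Rbfox1 in N-cre;Fox1 mice. It gives this for mRNA, without showing the data, and for protein on immunoblots. N-cre replicate 3 and N-cre;Fox1 replicate 2 stood apart in markers of the choroid plexus, the secretory tissue beside the hippocampus, with summed CPM (counts scaled to the size of the library) of 2245 and 5109 against 26.4 to 36.0 in the other 4 mice. Xist was high in replicate 1 of each genotype and low in the rest. Neurons were well represented: 8 neuronal markers, led by Snap25, Syt1 and Slc17a7, summed to 6042 to 6474 CPM in the 6 mice.

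An NMDA receptor is an assembly of obligatory GluN1 subunits, encoded by Grin1, which bind glycine or D-serine, with GluN2 subunits, encoded by Grin2a to Grin2d, which bind glutamate. GluN2 subunits set how long the channel stays open and how strongly magnesium blocks it. GluN3 subunits, from Grin3a and Grin3b, lower the calcium permeability of the receptor. Grin1 is the only gene for GluN1, and its variety comes from splicing. An optional N1 cassette lies in the extracellular amino-terminal domain, an optional C1 cassette in the intracellular tail, and a choice of splice site in the last exon ends the protein with C2 or with C2'. N1 is known to lower the sensitivity of the receptor to protons and zinc, C1 holds a retention signal for the endoplasmic reticulum, and C2' ends in a motif that binds PDZ domains.

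The cassettes on which the Grin1 results turn are shown first, read 5′ to 3′ from the GENCODE M21 transcripts (mm10, minus strand of chromosome 2), with the cassette in capitals and up to 15 bases of neighbouring exon in lower case. N1 is an exon of 63 bases at chr2:25311343-25311405 and adds 21 codons. C1 is an exon of 111 bases at chr2:25294438-25294548 and adds 37 codons. The C2 ending spans chr2:25292368-25292484 with 39 codons, the stop codon included. The C2' ending spans chr2:25292060-25292128 with 23 codons, also counted with the stop codon.
N1 cassette: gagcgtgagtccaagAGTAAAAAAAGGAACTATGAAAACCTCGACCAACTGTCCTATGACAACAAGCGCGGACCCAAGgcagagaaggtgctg
exons joined without N1: gagcgtgagtccaaggcagagaaggtgctg
C1 cassette: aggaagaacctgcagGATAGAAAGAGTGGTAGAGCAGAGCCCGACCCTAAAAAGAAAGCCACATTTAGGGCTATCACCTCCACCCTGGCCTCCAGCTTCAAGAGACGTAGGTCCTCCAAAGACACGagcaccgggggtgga
C2 ending: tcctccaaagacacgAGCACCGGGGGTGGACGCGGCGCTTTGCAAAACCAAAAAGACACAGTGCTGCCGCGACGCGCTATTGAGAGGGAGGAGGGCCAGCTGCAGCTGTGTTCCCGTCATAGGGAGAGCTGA
exons joined without C1, C2 ending: aggaagaacctgcagagcaccgggggtgga
C2' ending: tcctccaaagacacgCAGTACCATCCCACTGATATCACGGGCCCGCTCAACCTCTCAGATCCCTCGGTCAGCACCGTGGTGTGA

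Grin1 lies on chr2:25291181-25319187 (ENSMUSG00000026959.13), and its summed normalized counts were 35390, 33683 and 34407 in N-cre and 35815, 31873 and 34257 in N-cre;Fox1. N-cre;Fox1 replicate 2 was the lowest of the 6 mice and N-cre;Fox1 replicate 1 the highest, so the genotypes overlapped. Normalized counts here are expected counts scaled to a common library size, summed over the isoforms of a gene where a gene is named. The log2 fold change, N-cre;Fox1 against N-cre throughout, was -0.02 with a standard error (SE) of 0.0490 and an adjusted p of 0.981 in edgeR. The SE, here and below, is not an output of edgeR. It was computed as the absolute log2 fold change divided by the square root of the test's F statistic. The antisense gene Grin1os shares 1307 exonic bases with Grin1 and had a mean normalized count of 672. Whether the counting used strand is not given in the sources used here, so reads in the shared bases cannot be told apart.

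The annotation lists 14 Grin1 isoforms, and its 8 coding isoforms are all the combinations of N1, C1 and the endings. In each of the 6 mice 5 of these 8 carried nearly all Grin1 counts. Grin1-205, which lacks N1 and C1 and ends in C2' (885 codons), was the most abundant, with shares of 27.3%, 27.4% and 30.3% of Grin1 counts in N-cre and 27.8%, 28.8% and 28.9% in N-cre;Fox1. Grin1-201, the form with C1 and C2 but no N1 (938 codons), held 22.4% to 23.7% among N-cre mice and 21.6% to 23.0% among N-cre;Fox1 mice. Grin1-206, with C1 and C2' (922 codons), held 20.9% to 24.9% and 21.2% to 22.5%. Grin1-202, with C2 alone (901 codons), held 11.2% to 15.1% and 12.6% to 13.9%. Grin1-207, with N1 and C2' (906 codons), was the only coding form with N1 that was detected above 1 normalized count in any mouse. Its shares were 10.4%, 9.74% and 11.9% in N-cre and 12.3%, 11.9% and 11.4% in N-cre;Fox1. Grin1-201 and Grin1-206 had overlapping ranges, so their places in the order do not differ beyond the spread between mice, whereas Grin1-205 lay above both and Grin1-202 and Grin1-207 below both in all 6 mice. The noncoding Grin1 isoforms together held 1.74% to 2.06%.

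**Figure D1:**
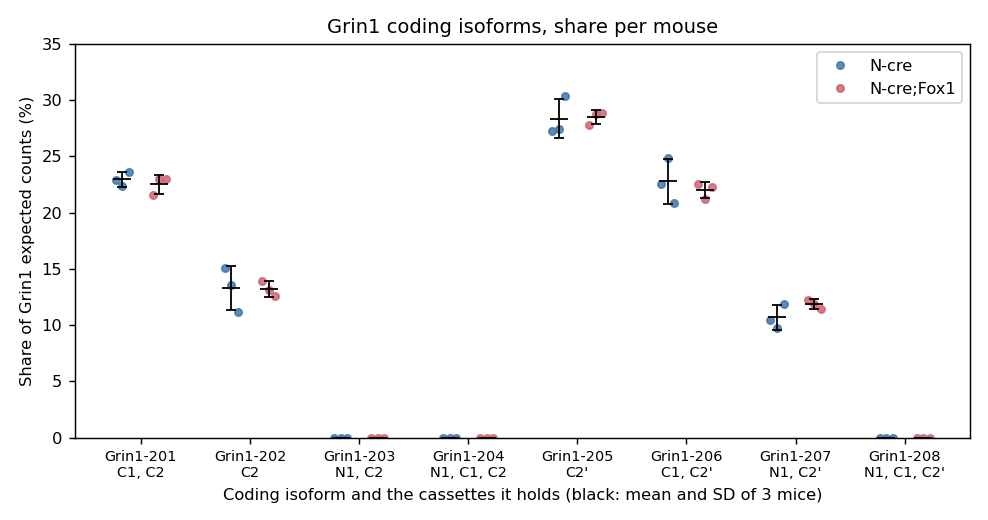
Share of Grin1 expected counts (percent, y axis) held by each of the 8 coding Grin1 isoforms (x axis, with the cassettes each holds), with coloured points for mice and black marks for the mean and SD of 3 mice per genotype. Grin1-205 is the highest in all 6 mice, 3 isoforms lie at or near 0, and the genotypes overlap for the other 5.

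The division among these forms was made by RSEM, and it is not equally direct for each feature. N1 and C1 are separated by 2019 bases of mRNA in Grin1-208, one of the forms that hold both, so the reads that cover N1 do not reach C1 or the endings. Which tail accompanies N1 therefore rests on the model's division of reads. The total share of each cassette rests on reads over the cassette and its junctions, but not on these alone. The annotated coding forms also differ at their upstream end. Those with N1, Grin1-207 among them, start at position 25319095 of chromosome 2. Grin1-201, Grin1-202 and Grin1-206 start at 25319120, and Grin1-205 at 25319187. How far reads over these bases shaped the shares was not tested. N1 was included in 10.4%, 9.74% and 11.9% of Grin1 counts in N-cre (mean 10.7% ± 1.08, SD, n = 3) and in 12.3%, 11.9% and 11.4% in N-cre;Fox1 (11.9% ± 0.427). N-cre replicates 1 and 2 were below the 3 N-cre;Fox1 mice, but N-cre replicate 3 lay among them. Its 95% Wilson interval, taken over all Grin1 counts, was 11.5% to 12.3%. Far fewer reads cover N1 or its junctions, so this interval is narrower than the counting error, and it holds no other error. C1 was included in 45.5%, 47.2% and 44.5% in N-cre and 44.1%, 44.2% and 45.3% in N-cre;Fox1. Forms with the C2' ending held 60.3% to 63.1% and 61.9% to 62.6% of counts, and those with the C2 ending 34.8% to 38.0% and 35.5% to 36.1%. Shares of counts are not corrected for length. Grin1-201 and Grin1-202, which end in C2, have 4238 and 4127 bases. Grin1-205, Grin1-206 and Grin1-207, which end in C2', have 3838, 3882 and 3809, so counts weigh the C2 forms more per transcript. The genotypes overlapped for every one of these features, and in both genotypes most Grin1 counts lacked N1 and ended in C2', while C1 was in 44.1% to 47.2%.

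**Figure D2:**
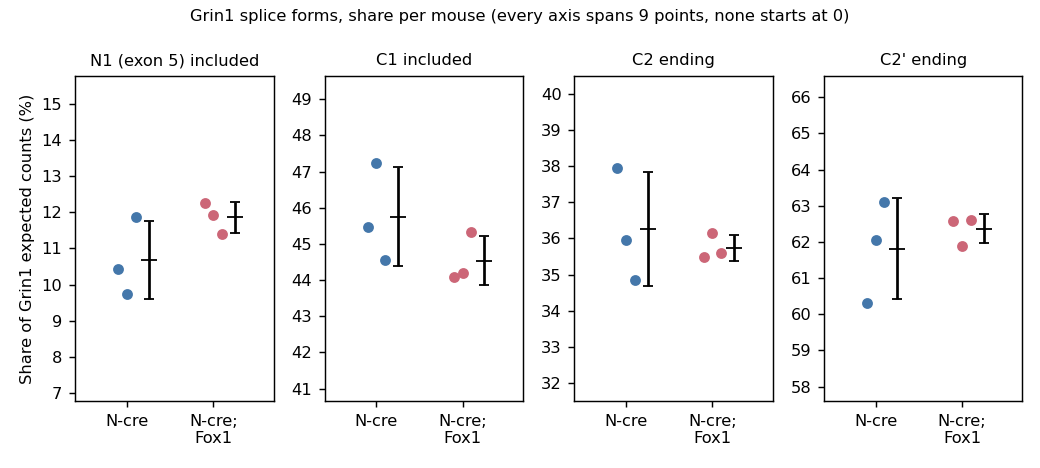
Percent of Grin1 expected counts (y axis) that include N1, include C1, or end in C2 or C2', in 1 panel each, by genotype (x axis), with points for mice and black marks for the mean and SD (n = 3). The axes do not start at 0 and all span the same number of points. N1 lies between 9.74% and 12.3% and C2' between 60.3% and 63.1%, with the genotypes overlapping for each feature.

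Among the Grin1 isoforms the fold changes between genotypes were small. The normalized counts of Grin1-207 were 3701, 3285 and 4077 in N-cre and 4386, 3801 and 3898 in N-cre;Fox1, with overlap and a log2 fold change of 0.13 (SE 0.0931, adjusted p = 0.990 in edgeR). That value was 0.0510 without N-cre replicate 2, 0.0591 without N-cre;Fox1 replicate 1, 0.206 without N-cre replicate 3 and 0.245 without the pair of mice with choroid plexus counts. The other named isoforms, Grin1-201, Grin1-202, Grin1-205, Grin1-206 and the noncoding Grin1-214, had log2 fold changes of -0.05, -0.03, -0.02, -0.07 and 0.05, each with overlapping genotypes. A short noncoding isoform outside the naming rule, Grin1-212, was chosen after its values were seen because its genotypes did not overlap: 41.8, 36.2 and 50.8 normalized counts in N-cre and 29.8, 26.98 and 27.97 in N-cre;Fox1 (log2 fold change -0.60, SE 0.243, unadjusted p = 0.0460 and adjusted p = 0.990 in edgeR).

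Rbfox proteins bind UGCAUG in RNA, read as TGCATG in DNA letters, often in introns beside regulated exons. The intron sequence on both sides of N1 is retained in Grin1-214, so it could be searched. The introns beside C1 and the endings were not searched, so the search does not set N1 apart from them. On the transcribed strand TGCATG was found once in the first 200 intron bases after N1, starting at intron base 8, and not in the last 200 bases before it. It was not found on the opposite strand of either window. The stretch chr2:25311315-25311357 is shown with the last 15 bases of N1 and the motif in capitals, from the transcript of Grin1-214 (mm10, minus strand).
end of N1 and intron: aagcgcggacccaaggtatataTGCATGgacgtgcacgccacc
Of 3352 exons that lie within an intron retained by another transcript, 9.308% held TGCATG in the downstream window and 7.757% in the upstream one, against 6.086% upstream and 5.4% downstream on the opposite strand. The shorter GCATG was in 20.11% of downstream and 18.26% of upstream windows, and its only match beside N1 was the one inside TGCATG. The match is a description of the letters beside an exon whose inclusion overlapped between the genotypes.

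Levels were compared between genes per length, in TPM, which divides the counts of each isoform by its annotated length and scales every library to the same total. In the order Grin1, Grin2b, Grin2a, Grin2c, Grin3a, Grin2d and Grin3b, each gene was above the next in 6 of 6 mice, and the ranges of neighbours over the 6 mice did not overlap. Grin1 had 391 to 427 TPM and a mean 7.72 times that of Grin2b, which had 51.9 to 56.0 TPM. Grin2a followed closely with 42.1 to 50.4 TPM. Grin2c had 25.3 to 33.1 TPM, Grin3a 12.9 to 14.3 TPM and Grin2d 7.92 to 9.85 TPM. Grin3b was near the floor at 0.122 to 0.278 TPM. These ranges cover both genotypes.

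**Figure D3:**
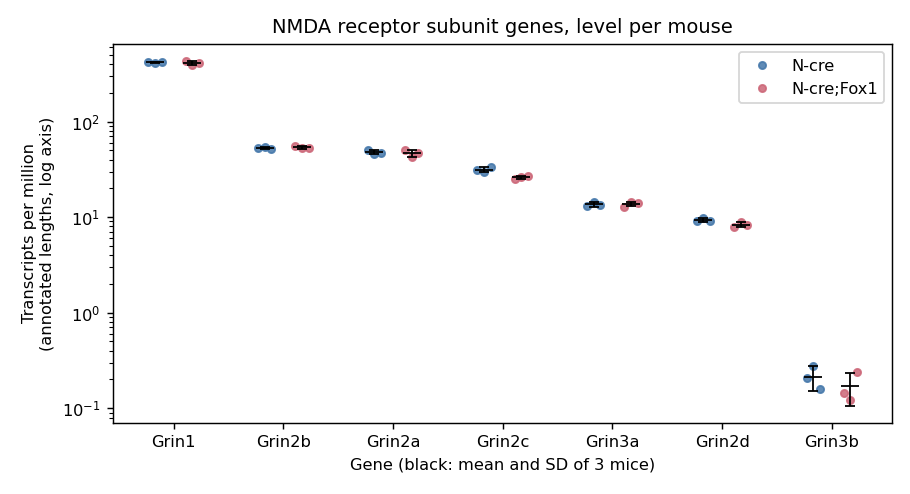
Level of each NMDA receptor subunit gene (x axis) in TPM on a log10 y axis, with a point for each of the 3 N-cre and 3 N-cre;Fox1 mice and black marks for the mean and SD. Grin1 lies between 391 and 427 TPM and Grin3b between 0.122 and 0.278 TPM, and the genotypes are separate for Grin2c and Grin2d.

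Of the GluN2 genes, Grin2b (chr6:135713233-136173511, ENSMUSG00000030209.14) encodes the subunit with long openings that prevails early in life and is retained in the adult forebrain. Its normalized counts were 27129, 27862 and 26430 in N-cre and 28826, 26254 and 27332 in N-cre;Fox1. The genotypes overlapped, with a log2 fold change of 0.02 (SE 0.0458, adjusted p = 0.984 in edgeR). Grin2b lies 22.6 Mb from Gt(ROSA)26Sor on the same chromosome, and whether any sequence of the stem cell strain remains at Grin2b was not tested. A single isoform, Grin2b-201, held at least 99.98% of its counts in each mouse. Grin2a (chr16:9567898-9995560, ENSMUSG00000059003.12) encodes the faster subunit that rises as synapses mature. Its normalized counts were 15535, 14203 and 14498 in N-cre and 15641, 12709 and 14645 in N-cre;Fox1. N-cre;Fox1 replicate 2 was again the lowest, and the log2 fold change was -0.04 (SE 0.0760, adjusted p = 0.973 in edgeR). Grin2a-206 held 99.6% to 99.8% of its counts.

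Grin2c (chr11:115249169-115267243, ENSMUSG00000020734.13) encodes a subunit with weak magnesium block that is best known from cerebellar granule cells and astrocytes, and it was the only tested Grin gene whose normalized counts did not overlap between the genotypes. They were 2933, 2745 and 3059 in N-cre and 2362, 2410 and 2511 in N-cre;Fox1. All 3 N-cre;Fox1 mice were below all 3 N-cre mice, with means of 2428 ± 76.1 and 2912 ± 158 (SD, n = 3 each), a level 16.6% lower. The log2 fold change was -0.26 (SE 0.0459), with an unadjusted p of 0.000171 and an adjusted p of 0.287 in edgeR. The adjusted p ranged from 0.00331 to 0.967 over the other ways of processing, the lowest without a filter on low counts and the highest without N-cre replicate 3, and it was 0.00738 in DESeq2 and 0.704 in limma-voom. The fold change kept its direction in each of them and was -0.22 without the pair of mice with choroid plexus counts. In these bulk libraries fewer cells that express Grin2c and less Grin2c RNA per cell cannot be told apart.

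Because Grin2c is known from astrocytes, the astrocyte markers are given beside it. Their sum ran from 4397 to 4579 CPM among N-cre mice and 4666 to 4940 among N-cre;Fox1 mice, so it was higher in all 3 N-cre;Fox1 mice while Grin2c was lower in them. The sum weighs markers by abundance, and Slc1a2 averaged 112874 normalized counts over the 6 mice against 35264 for Aldoc, the next. Of the 4 most abundant markers, Slc1a2 and Gfap were higher without overlap, while Aldoc and Slc1a3 overlapped. The sum is therefore no measure of astrocyte content. None of the 11 astrocyte markers was at 0. Fold changes were above 0 for 6 of them and below 0 for 5, with a median log2 fold change of 0.02 against 0.00 for all genes. For 4 markers the genotypes were separate and N-cre;Fox1 higher, against 6.04% of all genes, and for 0 markers were they separate and N-cre;Fox1 lower, against 6.1%. In edgeR 0 were called, against 0.0264% of all genes, with 5 under an unadjusted p of 0.05, against 6.19%, while DESeq2 called 2, Gfap and Aqp4, against 0.264%. Gfap, an intermediate filament of astrocytes, had a log2 fold change of 0.38 (adjusted p = 0.320 in edgeR and 2.69e-06 in DESeq2), and Aqp4, their water channel, 0.21 (adjusted p = 0.595 in edgeR and 0.0395 in DESeq2). In the other direction, Fgfr3, a growth factor receptor, had -0.21 (unadjusted p = 0.0265 in edgeR) and Aldh1l1, a folate enzyme, -0.14. The abundant Aldoc and Slc1a3 had 0.03 and -0.02. The 5 markers of CA1 pyramidal cells summed to 669 to 730 CPM among N-cre mice and 609 to 661 among N-cre;Fox1 mice, also without overlap. That sum, too, weighs markers by abundance. Fold changes of all 5 were below 0, but only 1, Wfs1, was separate between the genotypes, against 6.1% of all genes separate and lower. Wfs1 had 8801 to 11496 normalized counts among N-cre mice and 6577 to 8437 among N-cre;Fox1 mice. Interneuron markers overlapped, at 834 to 908 and 863 to 874, as did those of thalamus and striatum, at 125 to 145 and 112 to 180. The part of any of these in the Grin2c difference was not tested.

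As RSEM divided the reads, the genotypes were separate in the main Grin2c isoform and overlapped in the other. Grin2c-201, which starts at position 115265429 of chromosome 11, had 2459, 2339 and 2630 normalized counts in N-cre and 2004, 1900 and 1951 in N-cre;Fox1. The genotypes did not overlap, and the log2 fold change was -0.34 (SE 0.0552, adjusted p = 0.612 in edgeR and 0.000516 in DESeq2). Grin2c-202, which starts upstream at position 115267243 and has the same coding sequence of 1239 codons, had 479, 409 and 426 in N-cre and 358, 511 and 554 in N-cre;Fox1. These overlapped, with a log2 fold change of 0.11 (SE 0.177). N-cre;Fox1 replicate 1 was below every N-cre mouse in Grin2c-202 as well, so in that mouse both isoforms were lower. The share of Grin2c counts given to Grin2c-202 was 13.9% to 16.3% among N-cre mice and 15.1% to 22.1% among N-cre;Fox1 mice. Whether the isoforms differ in their genotype difference was not tested.

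Grin2d (chr7:45831883-45878378, ENSMUSG00000002771.12) encodes the GluN2 subunit with the slowest deactivation, known from interneurons. Its normalized counts were 936, 1071 and 997 in N-cre and 864, 943 and 892 in N-cre;Fox1. N-cre;Fox1 replicate 2 was just above N-cre replicate 1, so the genotypes overlapped in counts, while in TPM the 3 N-cre;Fox1 mice, at 7.92 to 8.83, were below the 3 N-cre mice, at 9.02 to 9.85. The log2 fold change of the counts was -0.15 (SE 0.0667, adjusted p = 0.799 in edgeR). The main isoform Grin2d-201 had 740, 890 and 768 in N-cre and 646, 689 and 699 in N-cre;Fox1, without overlap (log2 fold change -0.24, SE 0.0920, adjusted p = 0.990 in edgeR). Grin2d-203, with a first exon upstream, had 174, 168 and 216 in N-cre and 206, 244 and 180 in N-cre;Fox1, with overlap and a log2 fold change of 0.18, which was 0.0536 without N-cre;Fox1 replicate 2, 0.111 without N-cre replicate 2, 0.272 without N-cre;Fox1 replicate 3 and 0.296 without N-cre replicate 3. The antisense gene Gm45441 shares 643 exonic bases with Grin2d and had a mean of 263 normalized counts.

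As shares of all GluN2 transcripts in TPM, Grin2b held 38.7%, Grin2a 34.1%, Grin2c 20.8% and Grin2d 6.40%, each a mean of 6 mice. Without the correction for length these would be 60.1%, 31.9%, 5.88% and 2.10%, since the annotated Grin2b-201 is 24060 bases long and Grin2c-201 only 4279. The share of Grin2c was 21.9%, 21.1% and 23.4% in N-cre and 18.1%, 20.3% and 19.7% in N-cre;Fox1, without overlap. The share of Grin2b was 36.8%, 38.9% and 36.7% in N-cre and 40.1%, 40.4% and 39.3% in N-cre;Fox1, also without overlap and in the other direction. Shares sum to 100 by construction, so a lower share of one gene raises those of the others, and the Grin2b counts themselves overlapped. The share of Grin2a was 33.7% ± 1.11 in N-cre and 34.5% ± 1.84 in N-cre;Fox1 (SD, n = 3), and that of Grin2d was 6.62% ± 0.388 and 6.18% ± 0.579, both with overlap. The ratio of Grin2a to Grin2b, which is used as a sign of synapse maturity, was 0.951, 0.846 and 0.906 in N-cre and 0.900, 0.804 and 0.887 in N-cre;Fox1, with overlap. Grin1 stood to the sum of the GluN2 genes as 2.95, 2.90 and 2.95 in N-cre and 3.06, 3.01 and 3.03 in N-cre;Fox1. Those ratios did not overlap, although Grin1 itself did. Their denominator holds Grin2c and Grin2d, both lower in TPM without overlap, so the ratios are not separate from those differences.

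**Figure D4:**
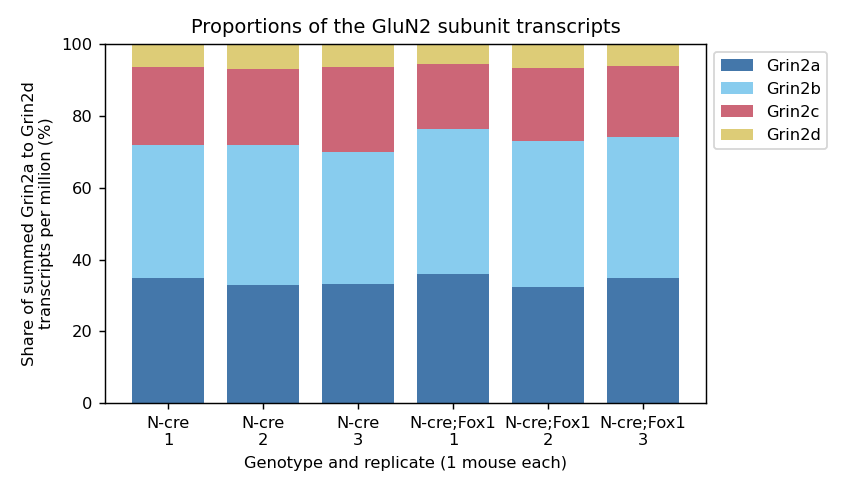
Share of each GluN2 gene in the summed TPM of Grin2a, Grin2b, Grin2c and Grin2d (percent, y axis) as a stacked bar for each of the 6 mice (x axis). The Grin2c segment lies at 21.1% to 23.4% among N-cre mice and 18.1% to 20.3% among N-cre;Fox1 mice, and the Grin2b segment is larger in all 3 N-cre;Fox1 mice.

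Grin3a (chr4:49661611-49845744, ENSMUSG00000039579.15) had 2053, 2245 and 2095 normalized counts in N-cre and 2046, 2209 and 2207 in N-cre;Fox1. The genotypes overlapped, with a log2 fold change of 0.02 (SE 0.0494, adjusted p = 0.986 in edgeR). Its isoforms differed in a stretch of 60 bases before the last exon of Grin3a-201, which Grin3a-202 keeps as exon and which lengthens the coding sequence from 1115 to 1135 codons. The stretch, chr4:49665566-49665625 (mm10, minus strand), is shown in capitals with 15 exon bases on either side because the isoform shares turn on it.
Grin3a-202: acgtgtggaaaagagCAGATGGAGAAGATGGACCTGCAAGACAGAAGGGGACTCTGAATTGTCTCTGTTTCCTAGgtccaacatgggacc
Grin3a-202 had 292, 286 and 122 normalized counts in N-cre and 306, 411 and 609 in N-cre;Fox1. N-cre replicate 3 was far below the rest and N-cre;Fox1 replicate 3 far above, and the genotypes did not overlap, although N-cre replicate 1 and N-cre;Fox1 replicate 1 nearly met. The log2 fold change was 0.92 (SE 0.404, unadjusted p = 0.0626 and adjusted p = 0.990 in edgeR), and leaving out each mouse in turn gave 0.62 to 1.13. As a share of Grin3a counts it was 14.2%, 12.7% and 5.83% in N-cre and 14.96%, 18.6% and 27.7% in N-cre;Fox1. For the closest pair, N-cre replicate 1 and N-cre;Fox1 replicate 1, the 95% Wilson intervals were 12.8% to 15.6% and 13.5% to 16.5%. They are taken over all Grin3a counts, though the isoforms differ in only 60 bases, so they are too narrow. Even so they overlapped, and the order of those mice was not detectable at this depth. Grin3a-201 had 1755, 1939 and 1944 in N-cre and 1726, 1783 and 1579 in N-cre;Fox1, with overlap and a log2 fold change of -0.15. The 60 bases are intron in Grin3a-201, and the libraries were made from total RNA. Whether unspliced Grin3a RNA contributed to the Grin3a-202 counts was not tested.

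Grin3b (chr10:79970715-79977190, ENSMUSG00000035745.9), known from motor neurons, had 13.0, 13.1 and 6.7 normalized counts in N-cre and 8.0, 8.3 and 7.3 in N-cre;Fox1. It did not pass the filter on low counts and was not tested. Tmem259, on the opposite strand, shares 1059 exonic bases with it and had a mean of 5567 normalized counts, so even these few counts cannot be assigned to Grin3b with certainty.

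Over the whole family, 6 of 7 genes passed the filter and 0 were called at an adjusted p under 0.05 in edgeR, against 0.0264% of all 18924 genes tested. DESeq2 called 1, Grin2c, against 0.264% of all genes, and limma-voom 0. At an unadjusted p under 0.05 in edgeR there were 2 genes, Grin2c and Grin2d, with negative fold changes, against 6.19% of all genes in either direction and 2.6% with negative ones. In 1 of 6 genes every N-cre;Fox1 mouse lay outside and below the range of N-cre, against 12.1% of all genes (6.1% lower and 6.04% higher). The median log2 fold change was -0.03 for the 6 genes and 0.00 for all genes.

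Of the 39 isoforms, 20 passed the filter, 8 were at 0 in every mouse and 11 others reached at most 14.4 normalized counts. Of the 20, 0 were called in edgeR (0% of 50556 isoforms tested), and 3 had an unadjusted p under 0.05, namely Grin2c-201, Grin2d-201 and Grin1-212, against 4.78% of all isoforms in either direction and 2.17% with negative fold changes. DESeq2 called Grin2c-201 alone, against 0.425% of all isoforms, and limma-voom 0. In 5 of 20 the genotypes were separate, of which Grin3a-202 was higher and Grin2c-201, Grin2d-201, Grin2d-202 and Grin1-212 lower, against 11.5% of all isoforms, 5.86% higher and 5.66% lower. As shares of their gene's counts, 1 of 19 isoforms was higher without overlap, Grin3a-202, and 2 were lower, Grin3a-201 and Grin1-212, against 5.84% and 5.37% of 42441 isoforms. The 6 tested isoforms with means under 100, of 10.3 to 80.8 normalized counts, had log2 fold changes from -0.60 to 0.01. Nothing is drawn from these counts, since the same comparison was in view when the family was chosen.

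**Figure D5:**
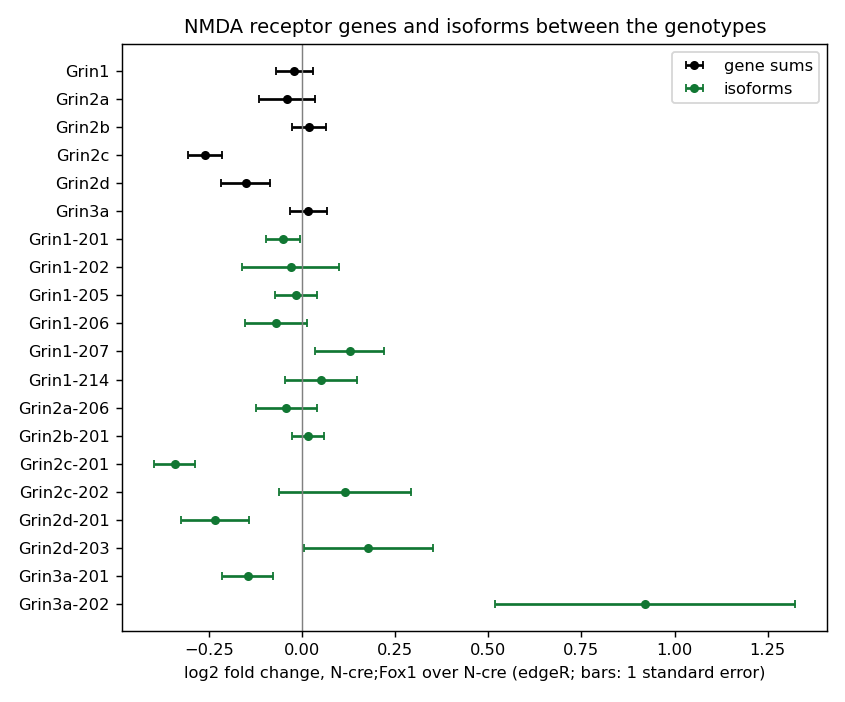
Log2 fold change between N-cre;Fox1 and N-cre (x axis) from edgeR, with bars of 1 SE on either side, for the tested NMDA receptor subunit genes and named isoforms (y axis). The SE was computed from the fold change and the F statistic of the test. Grin2c lies at -0.26 and Grin3a-202 at 0.92 with the widest SE, and the other genes lie between -0.15 and 0.02.

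A list of 61 genes that act with the NMDA receptor was set beside the subunits, of which 59 were tested. In edgeR 0 were called, against 0.0264% of all genes, and 4 had an unadjusted p under 0.05, against 6.19% of all genes, while DESeq2 called 1, Homer1, against 0.264%. Fold changes were above 0 for 28 and below 0 for 31, and the genotypes were separate for 5 that were higher and 2 that were lower, against 6.04% and 6.1% of all genes, so the list was near the background of 12.1% in either direction. The median log2 fold change was 0.00 for the list and for all genes. Among the 16 scaffolds, Dlg4, the PSD-95 protein that anchors GluN2 tails, had 34775 to 36012 normalized counts among N-cre mice and 31916 to 36006 among N-cre;Fox1 mice, with overlap. Homer1, which links the scaffold to metabotropic glutamate receptors, had 5582, 4757 and 4460 in N-cre and 5724, 5960 and 6451 in N-cre;Fox1 (log2 fold change 0.29, SE 0.0900). Every N-cre;Fox1 mouse was above every N-cre mouse, with an adjusted p of 0.769 in edgeR and 0.0338 in DESeq2. Of the 7 trafficking genes, Lin7a, a PDZ protein that rides with GluN2B cargo, had 457 to 481 among N-cre mice and 519 to 551 among N-cre;Fox1 mice (log2 fold change 0.18, adjusted p = 0.799 in edgeR).

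Of 27 kinases, phosphatases and downstream enzymes, 0 were called in edgeR, against 0.0264% of all genes. An unadjusted p under 0.05 in edgeR was found for 0, against 6.19% of all genes. For 1 of the 27 the genotypes were separate and N-cre;Fox1 lower, against 6.1% of all genes, and for 0 higher, against 6.04%. Camk2a, the calcium-activated kinase that binds GluN2B, had 208360 to 226394 among N-cre mice and 195039 to 226189 among N-cre;Fox1 mice. The glycine and serine genes gave 6 tested members. Slc6a9, the glial glycine transporter that clears the co-agonist, had 2251 to 2407 among N-cre mice and 1893 to 2244 among N-cre;Fox1 mice, lower without overlap (log2 fold change -0.15, adjusted p = 0.794 in edgeR). Slc1a4, a transporter of serine, was higher without overlap (log2 fold change 0.08, adjusted p = 0.799 in edgeR). Of 3 glutamate transporters, Slc1a2, the main one of astrocytes and also a member of the astrocyte list, had 105767 to 111819 among N-cre mice and 113682 to 120804 among N-cre;Fox1 mice (log2 fold change 0.12, adjusted p = 0.769 in edgeR).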

How the data were processed

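Total RNA of the hippocampus was sequenced with a stranded kit from 3 N-cre and 3 N-cre;Fox1 mice. Per the study's methods, the authors trimmed reads with Cutadapt 1.18, aligned them to mm10 with STAR 2.5.2b and quantified GENCODE M16 isoforms with RSEM 1.3.0. The authors deposited expected counts per isoform, of which 81.9% to 82.7% per mouse are not whole. Depth was 40463587 to 62141336 expected counts, which sets the counting error of each value.

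Expected counts were rounded, kept per isoform or summed by gene symbol, filtered with filterByExpr (minimum count 10, minimum total 15), scaled by TMM and tested with edgeR 4.0.16 (R 4.3.3, quasi-likelihood, robust, genotype only, Benjamini-Hochberg over all features, threshold 0.05). DESeq2 1.42.0 and limma-voom (limma 3.58.1) were alternatives, and the fit was tested on simulated data. The study's EBSeq was not used here. Isoforms were matched to GENCODE M21 by versioned ID (130921 of 133944, all 39 of Grin genes), whose lengths gave TPM. Isoform shares are shares of a gene's expected counts. Splitting between isoforms depends on RSEM's model, and shares carry no error from it.

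The 7 members and the gene lists were chosen with earlier results of these data known. The named isoforms are those whose normalized counts averaged 100 or more over the 6 mice. Partner genes are named up to 5 by absolute fold change among those with no overlap between genotypes and that same minimum. Dlg4 and Camk2a were added as examples after their values were seen. Marker genes are named as examples by abundance, except Aqp4, Fgfr3, Aldh1l1 and Wfs1, which were added after their values were seen. Samples were grouped by the genotype in the labels, and nothing there says how mice relate across numbers.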

Additional observations from a re-analysis of the deposited data

How the results depend on the processing

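Of 320 recomputed fold changes of the 20 named genes and isoforms, 295 kept their direction and side of the threshold, 22 changed direction and 3 passed the threshold: Grin2c without a filter and in DESeq2, and Grin2c-201 in DESeq2. The 5 genes called over the whole table became 45 without a filter, 50 in DESeq2, 11 with a term for high Xist and 2 to 29 on leaving out each mouse (29 without N-cre;Fox1 replicate 1, 2 without N-cre replicate 2, 3 without N-cre replicate 3 or N-cre;Fox1 replicate 3). The 0 isoforms called became 10 without a filter, 6 with 10 counts required in every mouse, 215 in DESeq2 and 1 unrounded. Without the pair of mice with choroid plexus counts, an alternative chosen after seeing the data, 7 genes and 0 isoforms were called. With a replicate block 5 genes and 0 isoforms were called. The replicate numbers are no pairing in the labels, deviations of same-numbered mice correlated at 0.378, -0.0951 and -0.211, and not every mouse correlated best with its own number.

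Fold changes close to 0 changed sign with the mice included, and the cause was not tested beyond the smaller number of mice. Leaving out each mouse gave log2 fold changes of -0.0564 to 0.0246 for Grin1, -0.104 to 0.0404 for Grin2a, -0.0139 to 0.0511 for Grin2b, -0.30 to -0.22 for Grin2c, -0.20 to -0.10 for Grin2d and -0.00591 to 0.0579 for Grin3a. Among isoforms the ranges that crossed 0 were -0.143 to 0.0906 for Grin1-202, -0.0555 to 0.0324 for Grin1-205, -0.0169 to 0.0952 for Grin1-214, -0.113 to 0.0351 for Grin2a-206, -0.0235 to 0.0455 for Grin2b-201 and -0.0171 to 0.279 for Grin2c-202. The other isoform ranges were -0.0881 to -0.0256 for Grin1-201, -0.131 to -0.00392 for Grin1-206, 0.0510 to 0.206 for Grin1-207, -0.382 to -0.297 for Grin2c-201, -0.290 to -0.151 for Grin2d-201 (the last without N-cre replicate 2), 0.0536 to 0.296 for Grin2d-203, -0.197 to -0.102 for Grin3a-201 and 0.615 to 1.13 for Grin3a-202. Without the choroid plexus pair the values that changed sign were Grin1 0.0226, Grin2a 0.0281, Grin3a -0.0114, Grin1-205 0.0681 and Grin2a-206 0.0230. The differences between genotypes in percentage points ranged, mouse by mouse left out, from 0.706 to 1.77 for N1, -1.83 to -0.474 for C1, -1.22 to 0.340 for C2, -3.30 to -2.14 for the share of Grin2c, 2.10 to 3.18 for Grin2b, -0.0535 to 1.75 for Grin2a and -0.753 to -0.184 for Grin2d. Without length correction the GluN2 shares were 31.9% for Grin2a, 60.1% for Grin2b, 5.88% for Grin2c and 2.10% for Grin2d, and the Grin2c difference was -0.968 points. Depth limits Grin3b and the isoforms with few counts.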

Other observations

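Over the 6 mice, the genes whose log2 CPM followed Grin1 most closely, among 13738 genes, were Pigl (Pearson r 0.999), Grin2a (0.994) and Kif1bp (0.993). Those nearest to Grin2c were AC154760.1 (0.988), Cracr2b (0.980) and Gm20515 (0.979). With 6 points that share libraries, depth and genotype, and with so many genes ranked, high values occur among the top ranks in any case, and these are given as a description.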
